A study of Drosophila melanogaster with 54 samples.

Results

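The regions described here were bound by at least 2 of the 4 head Hox proteins, Labial (Lab), Proboscipedia (Pb), Deformed (Dfd) and Sex combs reduced (Scr), and by none of the trunk and abdominal Hox proteins, Antennapedia (Antp), Ultrabithorax (Ubx), Abdominal-A (Abd-A) and Abdominal-B (Abd-B). They were chosen by the binding measured without the cofactor Homothorax (Hth): the 8 lists of Hox binding regions called at a q value of 0.01 were merged wherever they shared 1 bp, which gave 12340 merged regions, and 1159 of these (9.39%) met the rule. Binding was mapped by ChIP-seq in Drosophila Kc167 cells, an embryonic line with features of haemocytes, after transient transfection with a construct under the copper-inducible metallothionein promoter. All groups were induced with 1 mM copper sulphate for 4 h and then fixed with 1% formaldehyde for 10 min. The lists hold no expression, so markers of the line were not looked at. Each of the 18 ChIP groups had 2 libraries, and a further 18 libraries were inputs, so that 54 samples were made in all. Hth was supplied from the same construct as the Hox protein through a 2A peptide in 8 groups, named Lab+Hth, Pb+Hth, Dfd+Hth and Scr+Hth for the head proteins and Antp+Hth, Ubx+Hth, Abd-A+Hth and Abd-B+Hth for the others. Of the other 2 groups with Hth, the first carried GFP on Hth itself (Hth) and the second on Extradenticle supplied together with Hth (Exd+Hth). The groups without Hth carried GFP on 1 of the head proteins or on 1 of the other Hox proteins, with nothing else expressed from the plasmid. Cells of similar GFP level were collected by sorting in every group, and chromatin was precipitated through GFP, which sat after Lab and ahead of the other Hox proteins in the construct names. The lists give 1 set of regions per group with no height, read count or replicate, so neither depth nor the spread between replicates was analysed here, and the tagged protein could not be checked against its label. The 3 abdominal-most proteins, Ubx, Abd-A and Abd-B, were sequenced on another platform than the head proteins, and Antp was sequenced on that of the head proteins. For those 3, the platform and the protein's place along the body axis cannot be told apart.

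Hox proteins are homeodomain transcription factors that give the segments of the body their identity along its anterior to posterior axis. Lab, Pb, Dfd and Scr act in the head and the first thoracic segment, where Dfd is required for the maxillary and mandibular segments, Pb for the mouthparts and Scr for the labial segment and the salivary gland. Alone, most of them bind short sequences around a TAAT core, and with the TALE homeodomain partners Exd and Hth they bind longer composite sites in which the Exd and Hox proteins sit side by side. Hth carries Exd into the nucleus.

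The sequences below are the 200 bp centres of 6 of the regions bound by all 4 head proteins. They are shown as the stretches that most of the lists had in common, and only mtd and Cip4 among them hold a match to the patterns below. The 6 were taken from regions on 3L, 3R and X, in order of the number of lists that also held the region at q 1e-10 and then of width. A centre is the middle of the stretch covered by the most of the 8 lists. All are printed from the plus strand of dm6, and capitals mark every match on either strand to one of 7 patterns. HoxA, the site of most Hox proteins, was searched as TTAATGA and as TTAATTA. HoxB, which Abd-B prefers, was searched as TTTATGA and as TTTATGG, as well as TTTATTA and also TTTATTG. Composite Exd-Hox sites were TGATTGAT and also TGATTTAT and also TGATTAAT, and that of Lab with Exd was TGATGGAT. The others were TGACAG for Hth, GATAAG for GATA factors and GAGAGA for the GAGA factor. A run without capitals holds none of these letters.
cpo intron, chr3R:17977838-17978037: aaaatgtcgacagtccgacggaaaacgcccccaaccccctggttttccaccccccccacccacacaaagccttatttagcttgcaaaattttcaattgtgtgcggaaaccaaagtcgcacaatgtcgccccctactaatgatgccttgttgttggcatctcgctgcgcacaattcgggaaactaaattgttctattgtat
NK7.1 intron, chr3R:14354195-14354394: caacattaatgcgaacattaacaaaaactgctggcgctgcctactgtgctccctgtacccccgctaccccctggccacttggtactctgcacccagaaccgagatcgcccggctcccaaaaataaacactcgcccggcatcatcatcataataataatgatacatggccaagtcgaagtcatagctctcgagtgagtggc
mtd intron, chr3R:5328801-5329000: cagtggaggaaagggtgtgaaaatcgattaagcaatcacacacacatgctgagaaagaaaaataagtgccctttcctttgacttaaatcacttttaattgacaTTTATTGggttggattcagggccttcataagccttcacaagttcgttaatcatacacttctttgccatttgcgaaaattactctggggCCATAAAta
Cip4 intron, chr3L:4338324-4338523: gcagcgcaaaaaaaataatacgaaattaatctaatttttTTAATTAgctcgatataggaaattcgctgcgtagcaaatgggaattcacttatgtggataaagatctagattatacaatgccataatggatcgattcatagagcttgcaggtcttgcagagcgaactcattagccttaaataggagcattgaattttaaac
Between genes, nearest start site soti, chr3R:14382221-14382420: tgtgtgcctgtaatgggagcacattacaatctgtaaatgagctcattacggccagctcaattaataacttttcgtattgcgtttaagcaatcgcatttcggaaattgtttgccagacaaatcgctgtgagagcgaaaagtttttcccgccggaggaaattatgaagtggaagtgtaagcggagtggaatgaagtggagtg
CG12065 intron, chrX:8581059-8581258: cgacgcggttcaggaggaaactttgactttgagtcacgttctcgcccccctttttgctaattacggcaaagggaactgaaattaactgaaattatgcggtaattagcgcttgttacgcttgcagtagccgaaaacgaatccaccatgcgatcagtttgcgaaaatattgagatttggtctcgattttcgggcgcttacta

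The next sequences show Hox and Exd-Hox matches in other regions of the set. The first 3 are 60 bp around the first match to HoxA, Exd-Hox or the Lab with Exd pattern in the centre of the widest region of a combination, and the other 2 are the 200 bp centres of a region in an intron of Svil that was found in all 8 Hox lists with Hth and of a region in an intron of bru3 that was found in none of them.
Pb+Dfd, nearest start site CG17154, chr3L:12096019-12096078: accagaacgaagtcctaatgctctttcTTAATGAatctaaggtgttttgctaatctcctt
Lab+Dfd, nearest start site Cralbp, chr3L:5787791-5787850: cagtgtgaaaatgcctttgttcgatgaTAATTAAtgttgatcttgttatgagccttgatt
Lab+Pb+Scr, nearest start site CG4218, chr2L:14540970-14541029: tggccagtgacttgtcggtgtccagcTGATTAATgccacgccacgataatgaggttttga
Lab+Pb+Dfd+Scr, Svil intron, chr3L:2426371-2426570: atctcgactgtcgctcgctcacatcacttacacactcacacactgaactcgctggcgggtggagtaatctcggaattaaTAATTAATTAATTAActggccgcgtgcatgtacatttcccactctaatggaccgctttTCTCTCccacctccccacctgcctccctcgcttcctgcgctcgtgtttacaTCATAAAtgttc
Pb+Dfd, bru3 intron, chr3L:13586563-13586762: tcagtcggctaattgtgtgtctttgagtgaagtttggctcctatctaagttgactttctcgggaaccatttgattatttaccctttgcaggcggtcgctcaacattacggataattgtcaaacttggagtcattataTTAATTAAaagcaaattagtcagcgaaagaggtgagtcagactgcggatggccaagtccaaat
In the Svil centre 5 HoxA matches overlapped in a run of TAAT repeats, and the bru3 centre held 2 that overlapped on a single palindrome.

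All 11 possible combinations of 2 or more head proteins occurred, with very different frequencies. Pb with Dfd was the most frequent, with 337 regions (29.1% of the 1159), followed by Lab+Pb+Dfd with 255, Lab+Pb with 182 and Dfd+Scr with 150. All 4 head proteins shared 77 regions (6.64%). The other combinations were Pb+Dfd+Scr with 46 regions, Lab+Dfd with 38, Lab+Dfd+Scr with 23, Pb+Scr with 22, Lab+Scr with 17 and Lab+Pb+Scr with 12. In all, 746 regions held 2 head proteins and 336 held 3. Pb took part in 931 regions (80.3%), Dfd in 926 (79.9%), Lab in 604 (52.1%) and Scr in 347 (29.9%). Scr was thus the least frequent partner although its own list was long: these regions made up 5.16% of the merged regions with Scr, against 12.1% of those with Dfd, 18.2% of those with Pb and 18.3% of those with Lab. Scr was joined by Dfd in 296 of its 347 regions, by Pb in 157 and by Lab in 129.

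**Figure D1:**
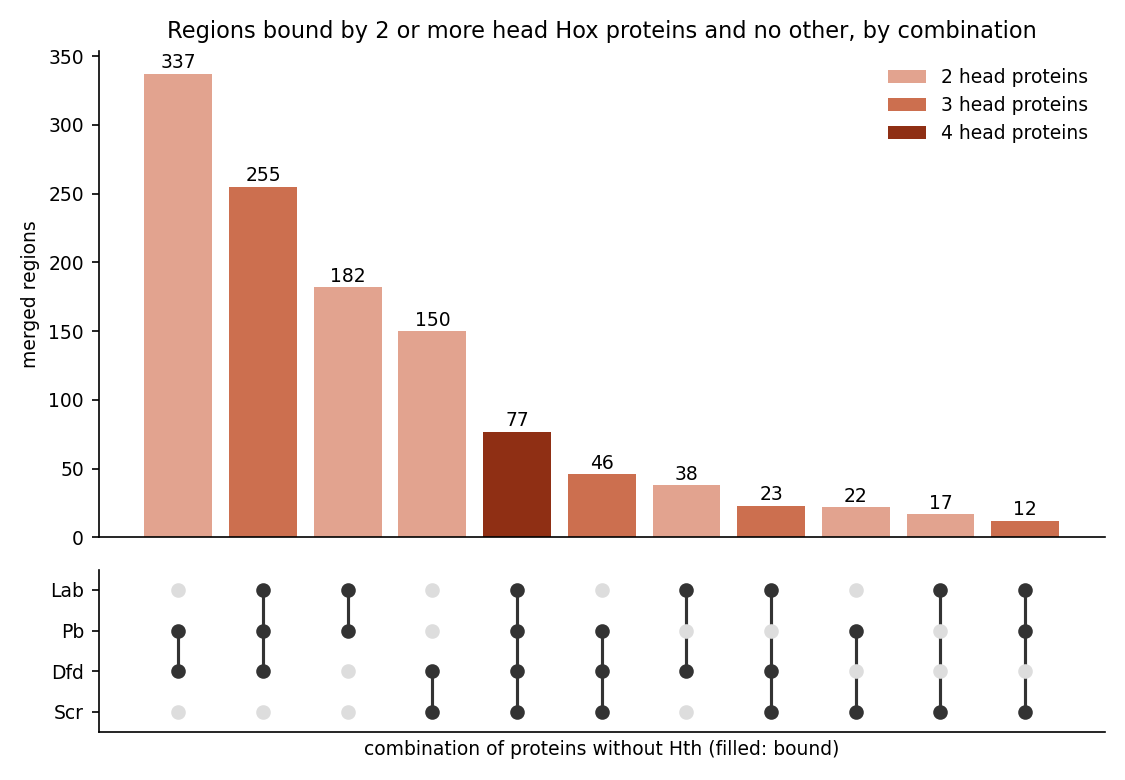
Number of merged regions (vertical axis) for each of the 11 combinations of head Hox proteins without Hth. Filled dots joined by a line show the proteins of a combination, and the bar colour gives their number. Pb+Dfd was the tallest bar with 337 regions, and Lab+Pb+Scr the lowest with 12.

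The median width of these regions was 612 bp, with quartiles of 472 and 821.5 bp, against 596 bp for all merged regions, and the range was 278 to 2670 bp. The median was 391 bp for regions with 1 head protein only. It was 416 bp for those shared by trunk and abdominal proteins only and 1456 bp for those bound by all 8. In 2 of the 1159 no single base was shared by every list of the combination. The values on which the rule turned lay as follows. Just outside it were 1701 regions bound by 1 head protein and no other Hox protein, and 1295 bound by 2 or more head proteins and exactly 1 trunk or abdominal protein. That 1 protein was Abd-B in 1241 of the 1295, Abd-A in 45, Antp in 7 and Ubx in 2, and leaving Abd-B out of both the merging and the rule gave 2463 regions. A trunk or abdominal region lay within 1000 bp of 341 regions (29.4%) without touching them. At the stricter q of 1e-10, every list of the combination still held the region in 192 of the 1159 (16.6%), and 410 (35.4%) were in none of the strict lists. By protein, 54.9% of the Pb regions among them were also in the strict list, against 45.7% of all merged regions with Pb, and the share was 21.9% for Scr, against 51.3% of all merged regions with Scr. For Dfd it was 41.4% against 52.7%, and for Lab 44.5% against 44.6%.

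The regions lay mostly inside genes and away from promoters. The centre was in an intron in 745 of 1159 (64.3%, 95% Wilson interval 61.5 to 67), against 49.3% of all merged regions, and between genes in 265 (22.9%), against 26%. Only 179 (15.4%, interval 13.5 to 17.6) had their centre within 500 bp of a transcript start site, against 42.3% of all merged regions. The same share was 18.9% for regions with 1 head protein only, 53.9% for the 269 regions shared by trunk and abdominal proteins only and 50% for the 1297 regions bound by all 8. The median distance to a start site was 2337 bp, against 814 bp for all merged regions. The 5' UTR held 57 centres (4.92%, against 16.4%), the 3' UTR 39, coding exons 26 and non-coding exons 27. Intervals here and in what follows cover counting error over regions only. Within the set the share near start sites differed by partner: it was 9.77% for regions with Lab and 21.6% for those without it, and 22.8% for regions with Scr and 12.3% for those without it. For all merged regions these shares were 32.8% with Lab and 45.8% without, and 49.7% with Scr and 33.4% without.

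The 5 large arms carried the regions at similar densities. There were 9.78 regions per Mb on 2L, 9.2 on 3R, 8.64 on 3L, 8.07 on 2R and 7.9 on X, against 90 to 97.3 merged regions per Mb on these arms, and chromosome 4 held 1 region of 56 merged. The nearest other region of the set was at a median distance of 15196 bp, and 493 (42.5%) lay within 10 kb of another.

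The 10 regions that were bound by all 4 head proteins, were held by all 4 strict lists and were widest lay in introns in 8 cases. The widest of all was in cpo, which encodes an RNA-binding protein of the nervous system (chr3R:17977271-17979940, 2670 bp), 33832 bp from the nearest start site. It was found with Hth in the Lab, Pb and Dfd lists and not in that of Scr. The second was in NK7.1, a homeobox gene (chr3R:14353127-14355504), and the third in mtd (chr3R:5328079-5330194), which was also in the Antp+Hth and Abd-B+Hth lists. The others in introns were in Cip4 (chr3L:4337581-4339480), whose product shapes membranes at endocytic sites, px (chr2R:22543354-22544852), Zasp52, a gene of the muscle Z-disc (chr2R:15809685-15811144), M7BP (chr2R:7623497-7624661) and CG12065 (chrX:8580600-8581737). The remaining 2 were between genes, nearest to the starts of soti (chr3R:14381827-14383095) and CG3699 (chrX:947772-948907). Of the 10, 7 overlapped Exd+Hth and 3 overlapped a trunk or abdominal list with Hth. HoxA sequences were in the 200 bp centre of 2 of the 10 and in the whole region of 9.

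The other combinations were each represented by the region with the most strict lists. For Lab+Pb+Dfd it was in an intron of Hs6st, a heparan sulphate 6-O-sulphotransferase gene (chr3R:19985413-19987751), for Lab+Pb in an intron of the cell polarity gene scrib (chr3R:26549563-26550992), and for Pb+Dfd between genes (chr3L:12094600-12096438). Each of the 3 was found again with Hth by every protein of its combination, and the scrib region also by Dfd, which did not bind it alone. For Dfd+Scr it was in an intron at chr3R:18293569-18294342, for Pb+Dfd+Scr in Fim, a gene for an actin-bundling protein (chrX:17293422-17294095), and for Lab+Dfd in inaE, a diacylglycerol lipase gene (chrX:13786442-13787156). The Lab+Scr region was in an intron of Ace, the acetylcholinesterase gene (chr3R:13256729-13257269), the Lab+Dfd+Scr region in CG46315 (chr2R:17711852-17713992) and the Pb+Scr region in mtd (chr3R:5314310-5315701). That Pb+Scr region was found with Hth by Pb and Dfd and not by Scr. The Lab+Pb+Scr region, between genes (chr2L:14539439-14541307), was in all 8 Hox lists with Hth.

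HoxA sequences were frequent at the centres of these regions. A HoxA match was in the 200 bp centre of 526 of 1159 (45.4%, interval 42.5 to 48.3), against 19.9% of all merged regions. In windows 1000 bp to either side, left out where any Hox list held them, the share was 11.4% of 1416 windows, so the centre held a match 3.99 times as often as its flanks. The median GC content was 41% in the centres, against 42.5% for all merged regions. In the neighbouring groups the share of centres with a HoxA match ran from 39.1% for regions with 1 head protein only to 11.1% for those bound by all 8. It was 2.97% for those shared by trunk and abdominal proteins only. The word TTAATTA was in 33.2% of centres and TTAATGA in 18.5%, against 13.8% and 8.22% of all merged regions. At least 2 HoxA matches, overlapping ones counted, were in 17.9% of centres, against 6.34%. The share with a HoxA match was 43.4% with 2 head proteins, 48.5% with 3 and 50.6% with 4, with intervals of 39.9 to 47, 43.2 to 53.8 and 39.7 to 61.5 that overlapped. Bin by bin, a HoxA match fell within 50 bp left or right of the centre in 16% and 16.6% of regions.

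**Figure D2:**
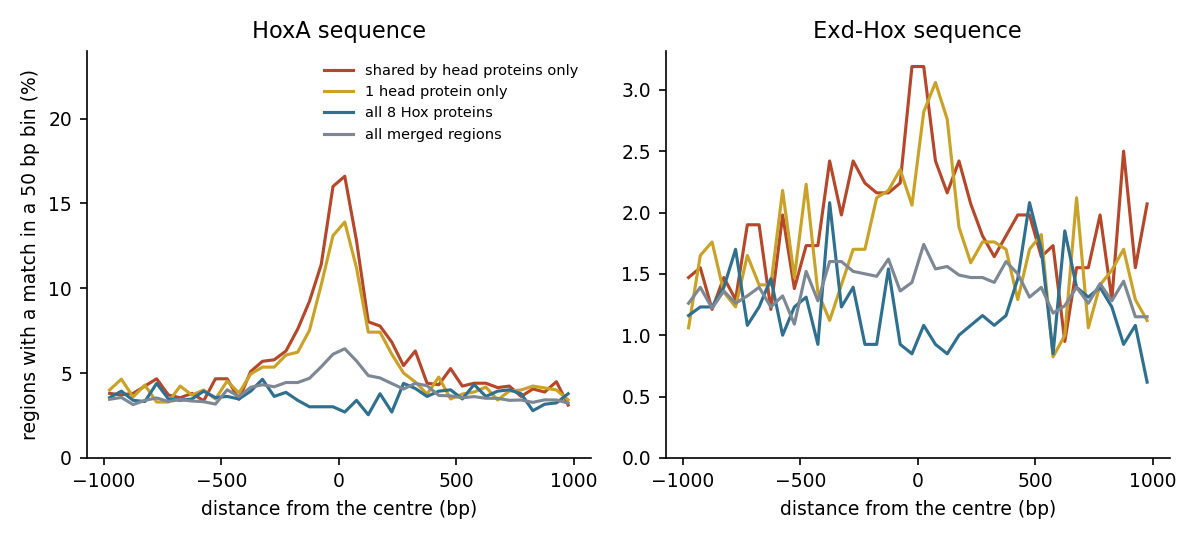
Share of regions (vertical axis, per cent) with a HoxA sequence (left) or an Exd-Hox sequence (right) in each 50 bp bin, by distance of the bin from the centre (horizontal axis, bp). Lines stand for regions shared by head proteins only, those with 1 head protein only, those bound by all 8 Hox proteins and all merged regions. The HoxA line of the regions shared by head proteins reached 16.6% beside the centre.

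The other sequences were less frequent or did not stand out. HoxB matches were in 26.1% of centres, against 28.7% of all merged regions, and in 24.3% of flanks. Exd-Hox matches were in 124 centres (10.7%, interval 9.05 to 12.6), against 5.7% of all merged regions and 5.01% of flanks. Regions with 1 head protein only were close, at 9.47% (interval 8.16 to 10.9). TGATTAAT, at 5.95%, was the most frequent of the 3 words. Of the 135 Exd-Hox matches, 20 overlapped a HoxA match. TGATGGAT was in 12 centres (1.04%, against 0.77%), and TGACAG in 97 (8.37%, against 7.67%). GATAAG was in 13.3% of centres, against 14.6%, and GAGAGA in 7.59%, against 12.1%. Regions bound by all 8 proteins had GAGAGA in 22.7% and those with 1 head protein only in 7.23%. None of the HoxA, HoxB, Exd-Hox and TGATGGAT words was in the centre of 430 regions (37.1%).

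By partner, HoxA matches followed Pb and were less frequent with Scr. They were in 50.8% of centres with Pb and 23.2% of those without it, and in 32.3% of centres with Scr and 51% of those without it. By combination the share was 54.9% for Pb+Dfd, 52.5% for Lab+Pb+Dfd, 45.6% for Lab+Pb and 22.7% for Dfd+Scr. All merged regions showed the same order at lower levels, with 28.7% where Pb was bound and 13.7% where it was not, and 14.2% where Scr was bound and 26.8% where it was not. Exd-Hox matches were in 13.6% of centres with Lab and 7.57% of those without it, and over all merged regions in 7.6% and 5%.

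With Hth, the head proteins were found at these regions far more often than the trunk and abdominal proteins. Dfd+Hth overlapped 1095 of the 1159 (94.5%, against 81.9% of all merged regions), Pb+Hth 862 (74.4%, against 39.1%), Lab+Hth 507 (43.7%, against 29.5%) and Scr+Hth 281 (24.2%, against 51%). Abd-B+Hth overlapped 104 (8.97%, against 65.6%), Abd-A+Hth 62 (5.35%, against 43.9%), Antp+Hth 51 (4.4%, against 20.4%) and Ubx+Hth 23 (1.98%, against 37%). The head lists averaged 59.2% ± 31.3 and the trunk and abdominal lists 5.18% ± 2.9 (SD, n = 4 proteins each), without overlap. The difference of 54 percentage points is a description with no test, since the rule had already separated the same 8 proteins in their lists without Hth and over all merged regions a protein was found again with Hth at 56.7 to 98.9% of the regions that it bound alone. Against Antp alone, which shared the head proteins' platform, the difference was 54.8 points. The level of the trunk and abdominal lists depended on the rule: for regions chosen on the q 1e-10 lists they averaged 25.4%, and the head lists 75.9%.

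**Figure D3:**
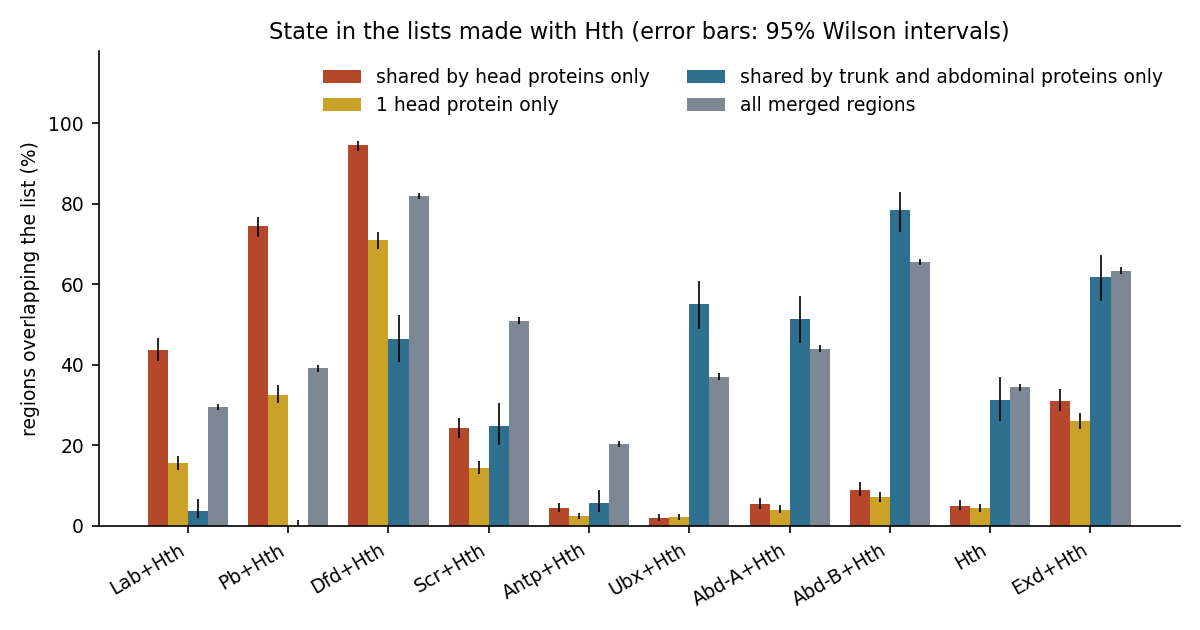
Share of regions (vertical axis, per cent) that overlapped each of the 10 lists made with Hth (horizontal axis), for regions shared by head proteins only, those with 1 head protein only, those shared by trunk and abdominal proteins only and all merged regions. Error bars are 95% Wilson intervals. In the regions shared by head proteins, Dfd+Hth reached 94.5% and the trunk and abdominal lists stayed at or below 8.97%.

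Most regions stayed with the head proteins. With Hth, 841 regions (72.6%) were in 2 or more head lists and no trunk or abdominal list. The share was 13.6% of all merged regions and 31.7% of regions with 1 head protein only. In 1 head list alone were 156 (13.5%), and that list was Dfd+Hth in 120. Here the share was 11.2% of all merged regions and 45.4% of regions with 1 head protein only. A trunk or abdominal list held 154 (13.3%, interval 11.5 to 15.4), and 99 of these were in 1 such list. The share was 68.8% of all merged regions and 9.76% of regions with 1 head protein only, so a low share was not particular to the shared regions. In 5 regions (0.431%) all 8 Hox proteins were found with Hth. In no Hox list with Hth were 8 regions (0.69%), against 6.38% of all merged regions and 13.1% of regions with 1 head protein only. The widest of the regions in all 8 were that between genes on 2L and one in Svil (chr3L:2426138-2427224). The widest in none were in bru3 (chr3L:13586455-13587337) and at sli, which encodes the axon guidance ligand Slit (chr2R:15896363-15897058), and the sli region overlapped both Hth and Exd+Hth. Every protein of the combination was found again in 773 regions (66.7%), and the combination with Hth was identical to that without it in 465 (40.1%). No share over all merged regions is given beside these counts or beside the 5 regions in all 8 lists. The most frequent combinations with Hth were Pb+Dfd in 329 regions and Lab+Pb+Dfd in 286.

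Each head protein was next followed through its own regions. Dfd+Hth held 915 of the 926 regions that Dfd bound alone (98.8%), Pb+Hth 819 of 931 (88%), Lab+Hth 423 of 604 (70%, interval 66.3 to 73.6) and Scr+Hth 216 of 347 (62.2%, interval 57 to 67.2). Over all merged regions with the same protein the shares were 98.9% for Dfd, 83.8% for Pb, 81.4% for Lab and 83.6% for Scr. The mean was 79.8% ± 16.7 in the regions shared by head proteins only and 86.9% ± 8.03 over all of each protein's merged regions (SD, n = 4 proteins each). The former are part of the latter, and the difference was -7.17 points. An exact sign-flip test gave a two-sided permutation p of 0.375. It could not have reached a p below 0.05, since 16 sign patterns allow none below 0.125, so nothing is read from it. Lab and Scr were lower, by differences of -11.4 and -21.4 points, Pb was higher by 4.12 points, and Dfd differed by -0.0674 points. Depth differed too. The paper reports more mapped reads for both Dfd+Hth libraries than for either Dfd library. It reports fewer for both Scr+Hth libraries than for either Scr library, and overlapping counts for Lab and Pb. The part of depth in the shares with Hth was not tested.

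Regions of the set that a protein had not bound alone were also followed. Dfd+Hth held 180 such regions (77.3%, interval 71.5 to 82.2), against 54% of all merged regions without Dfd. Pb+Hth held 43 (18.9%, against 7.42%), Lab+Hth 84 of 555 (15.1%, against 10.5%) and Scr+Hth 65 of 812 (8%, against 11.9%). The Dfd+Hth list was the longest of all, with 12050 regions, against 8448 for Dfd alone. The trunk and abdominal proteins bound none of the set alone by the rule, so that their shares with Hth are set beside those of all merged regions not bound alone. Ubx+Hth held 1.98%, against 17%, Abd-A+Hth 5.35%, against 13.8%, and Antp+Hth 4.4%, against 8.61%. Abd-B+Hth held 8.97% (interval 7.46 to 10.8), which did not differ from 9.37% beyond counting error.

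**Figure D4:**
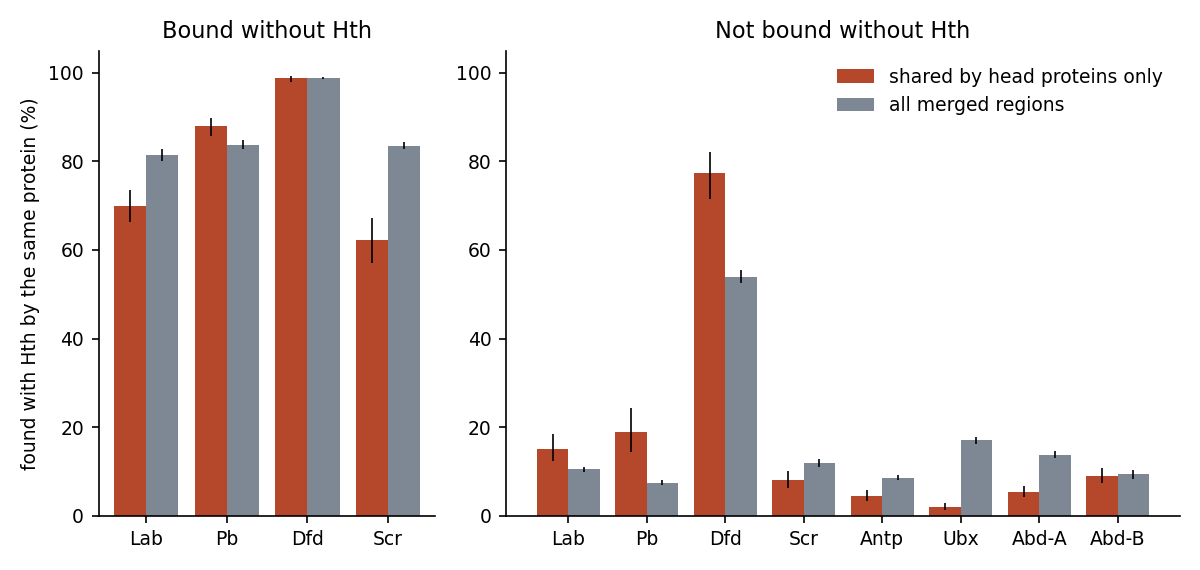
Share of regions (vertical axis, per cent) found with Hth by the same protein, for regions that the protein bound without Hth (left, head proteins) and regions that it did not (right, all 8 proteins). Dark red bars are regions shared by head proteins only, grey bars all merged regions, and error bars 95% Wilson intervals. Among regions not bound alone, Dfd stood at 77.3% and the other proteins at or below 18.9%.

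The combinations differed in which lists with Hth held them. They also differed in median width, from 446 bp for Lab+Scr to 1039 bp for all 4 head proteins. The part of width in the shares below was not tested. Lab+Hth held 88.3% of the regions bound by all 4 head proteins, 76.3% of Lab+Dfd and 73.3% of Lab+Pb+Dfd, and it held 13.6% of Pb+Dfd and 14.7% of Dfd+Scr, where Lab had not bound. Over all merged regions it held 81.4% of those that Lab bound alone and 10.5% of the others. Dfd+Hth held 77.5% of the Lab+Pb regions, where Dfd had not bound, against 54% of all merged regions that Dfd did not bind alone. Scr+Hth held 66.2% of the regions bound by all 4, 66% of Dfd+Scr and 2.2% of Lab+Pb. Over all merged regions Scr+Hth held 83.6% of those that Scr bound alone and 11.9% of the others. Dfd+Scr was also the combination that trunk and abdominal lists reached most often among those with over 100 regions: Abd-B+Hth held 22.7% of it and Abd-A+Hth 20.7%, against 3.56% and 0.89% of Pb+Dfd. Smaller combinations with Scr were reached as well. Abd-B+Hth held 9.09 to 22.7% of the combinations with Scr and 1.65 to 7.84% of those without it. For Abd-A+Hth the ranges were 0 to 20.7% and 0 to 5.26%.

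**Figure D5:**
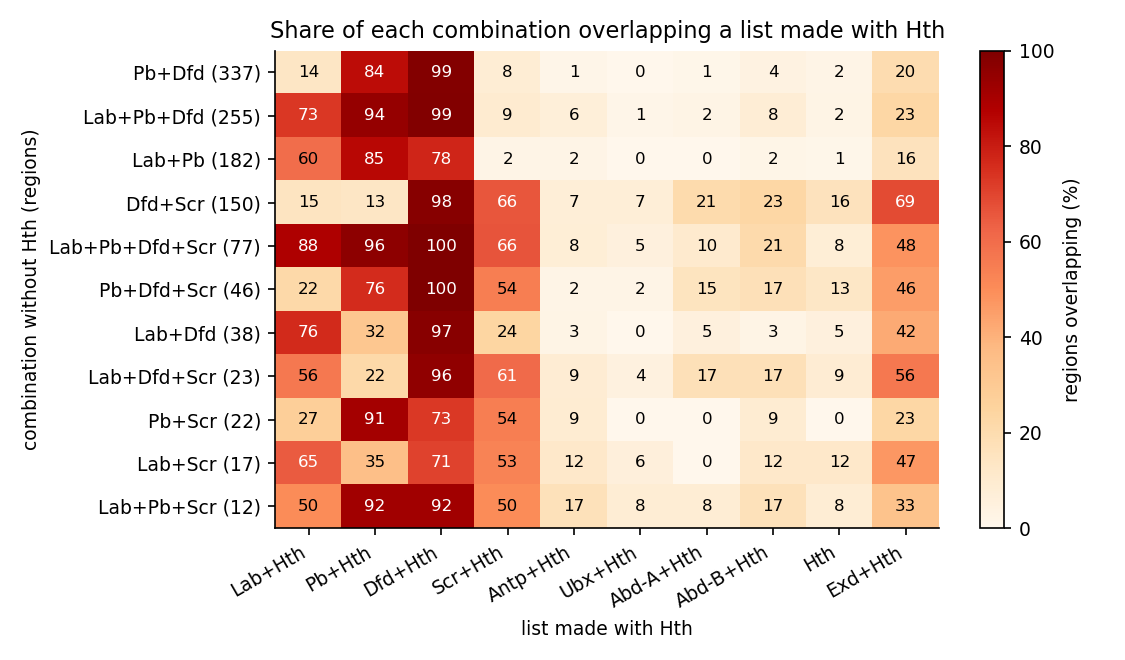
Share of the regions of each combination without Hth (rows, with the number of regions) that overlapped each list made with Hth (columns), in per cent by colour and number. The Dfd+Hth column was at 70.6% or more in every row, and the Exd+Hth column was highest in the Dfd+Scr row at 68.7%.

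The Hth and Exd+Hth lists came from cells given no Hox protein, so they do not show cofactor binding in the Hox+Hth groups. By the paper, Kc167 cells make Exd of their own and no Hth, and supplied Hth brings that Exd into the nucleus. Untagged Exd was thus present in the Hth group too. In these lists Hth was found at few of the regions and Exd at more. The Hth list overlapped 58 of 1159 (5%), against 34.4% of all merged regions and 91.3% of those bound by all 8 proteins. Exd+Hth overlapped 361 (31.1%, interval 28.5 to 33.9), against 63.3% of all merged regions. The shares for regions with 1 head protein only were 4.41% for Hth and 26% for Exd+Hth, and those for regions shared by trunk and abdominal proteins only were 31.2% and 61.7%. All 58 regions with Hth also had Exd+Hth, 303 had Exd+Hth only and 798 (68.9%) had neither, against 36.6% of all merged regions. The Exd+Hth list was also the longer, with 10404 regions against 5367 for Hth. The paper ascribes much of the apparent extra Exd binding in closed chromatin to weaker peaks passing over a low background. The part of this in the 303 was not tested. The shares in Hth and Exd+Hth depended on how strictly the set was drawn. Among 880 regions chosen by the same rule on the q 1e-10 lists, of which 53.3% touched a trunk or abdominal region at q 0.01, Hth overlapped 18.1%, against 47.4% of the strict merged regions, and Exd+Hth 52.6%, against 75.8%. With the q 1e-10 Hth list, 1.12% of the 1159 were overlapped, against 18.5% of all merged regions.

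Within the set, the Hth and Exd+Hth lists overlapped regions with Scr more often than those without it. Exd+Hth overlapped 191 of the 347 regions with Scr (55%, interval 49.8 to 60.2) and 170 of the 812 without it (20.9%, interval 18.3 to 23.9). Hth overlapped 11.8% with Scr and 2.09% without. The same held over all merged regions, where Exd+Hth overlapped 84.7% with Scr and 37.6% without. Dfd+Scr had the highest share, 68.7%, against 15.9% of Lab+Pb, 19.9% of Pb+Dfd and 22.7% of Lab+Pb+Dfd. Regions that a trunk or abdominal list held with Hth were in Exd+Hth in 73.4% of cases, against 24.7% of the 1005 that no such list held. HoxA matches were less frequent where Exd+Hth was found, in 35.2% of centres, against 50% of those where it was not, and over all merged regions the shares were 13.4% and 31.1%. Exd-Hox matches were in 11.9% of centres with Exd+Hth (interval 8.96 to 15.7), against 10.2% of those without it, and over all merged regions in 4.63%, against 7.53%.

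Exd-Hox matches were instead unequal by the Hox protein found with Hth. The Exd-Hox words follow a pattern that the paper based on in vitro sites and on motifs found in these same data. Those motifs came from regions where Hox binding rose with Exd and Hth, so the shares below are a description and no independent support. They were in 90 of the 507 centres in Lab+Hth (17.8%, interval 14.7 to 21.3) and 34 of the 652 outside it (5.21%, interval 3.76 to 7.2). Over all merged regions the same shares were 8.99% and 4.32%. Among the few regions of the set that reached trunk and abdominal lists, 19 of 51 centres in Antp+Hth held one (37.3%, interval 25.3 to 51), against 9.48% of the others, where all merged regions had 8.04% in the list and 5.1% outside it. For Abd-B+Hth it was 23 of 104 (22.1%, interval 15.2 to 31), against 9.57%, where all merged regions had 5.07% and 6.9%. For Ubx+Hth it was 7 of 23 (30.4%, interval 15.6 to 50.9), against 10.3%, where all merged regions had 4.7% and 6.28%. For Abd-A+Hth it was 11 of 62 (17.7%, interval 10.2 to 29), against 10.3% (interval 8.64 to 12.2), which overlap, where all merged regions had 4.35% and 6.75%. For Scr+Hth the shares were 12.1% in the list and 10.3% outside it, where all merged regions had 5.09% and 6.33%. For Pb+Hth they were 11.9% and 7.07%, where all merged regions had 7.68% and 4.42%. For Dfd+Hth they were 11% and 6.25%, where all merged regions had 5.83% and 5.11%. TGATGGAT was in 10 of the 507 centres in Lab+Hth and 2 of the 652 outside it.

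A region of the set lay within 1 kb of 880 of 13945 protein-coding genes (6.31%). Of these, 683 had 1 such region and 12 had 5 or more, and 194 regions (16.7%) were near no protein-coding gene. The genes with most were Svil, a supervillin homologue of the actin cytoskeleton, and pyd, the ZO-1 homologue of cell junctions, with 6 each of 31 and 25 merged regions. The 5 others named next had 5 regions each: Bicra, CG13917, Epac, an exchange factor for Rap GTPases, IP3K2, an inositol trisphosphate kinase, and LRP1, a lipoprotein receptor gene. Ptp61F, a tyrosine phosphatase gene, SNF4Agamma, the regulatory subunit of the AMP-activated kinase, and dally, which encodes a cell surface glypican, had 5 as well, as did mtgo and toc. At Svil all 6 regions were bound by Lab and Pb and all 6 were found with Hth by Lab, Pb and Dfd. At dally 5 of 5 were found in Pb+Hth and Dfd+Hth, and none overlapped Hth or Exd+Hth. At Ptp61F 3 of the 5 were Lab+Pb regions. These genes are long, with 24.1 kb at CG13917 the shortest and 133 kb at Ptp61F the longest of the 10, and the counts were not adjusted for length.

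In each list of developmental genes 0 to 3 genes had a region within 1 kb, and the shares are set beside the 6.31% of all protein-coding genes. Of the 8 Hox genes 1 did (12.5%), Scr itself with 1 Pb+Dfd region, and regions over exons carried on the plasmids had been removed by the authors. Of 15 head patterning genes 1 did (6.67%), cnc, a bZIP factor of the mandibular segment, with a Lab+Pb+Dfd region. Of 14 known head Hox targets and salivary gland genes 1 did (7.14%), the homeobox gene al, with a Lab+Pb region, while Dll, rpr, fkh, wg and dpp had none. Of 15 haemocyte genes 2 did (13.3%): ush, the FOG cofactor of GATA factors, with 1 of its 23 merged regions, and Pvr, a receptor tyrosine kinase gene, with 1 of 6. Of 16 neuronal and adhesion genes 3 did (18.8%), led by the Netrin receptor gene fra with 4 of 14 merged regions, 3 of them bound by Lab and Pb, then Ten-m with 2 and Fas2 with 1. Neither of the cofactor genes hth and exd had one, although 10 merged regions lay at hth.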

How the data were processed

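ChIP-seq was made from 36 ChIP and 18 input samples of Kc167 cells, induced with 1 mM copper sulphate for 4 h and fixed with 1% formaldehyde for 10 min. Per the labels and the methods of the study, reads with 1 match in dm6 were kept by the authors after Bowtie 1.2.2. They called peaks with MACS2 2.1.1.20160309 per replicate against input at q 0.01 and q 1e-10, removed regions over exons on the plasmids, and deposited 1 list per group of regions found in both replicates. The score column of the deposited lists is 0 throughout, so regions carry no height. No column of per-sample values was left unused (0). The weaker library of a pair limits its list.

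The rule and the gene and sequence lists were chosen with earlier results of these data known. Arms were those of Release 6, and no region ended beyond its arm (0). Start sites and gene bodies came from Ensembl release 115. Of 16 head patterning symbols 15 matched. Overlaps needed 1 bp. Sequences were matched on both strands in 200 bp centres. Merging, overlaps and matching were checked on constructed data, where 600 of 600 combinations and 200 of 200 planted matches were recovered. Shares have 95% Wilson intervals, and a p below 0.05 was called. The exact permutation test planned for the head against trunk and abdominal lists with Hth is not reported, since the rule fixes its direction. The tools were matplotlib 3.10.9, scipy 1.17.1, numpy 2.4.6 and Python 3.11.15. Regions were named by number of strict lists and then width: 10 of those with 4 head proteins, 1 for each other combination, the 2 widest in all 8 and in none of the Hox lists with Hth, and the 10 genes with most regions. Alternatives were stricter lists, an overlap of 50%, 200 bp centres, leaving out each protein, other sequence windows and other gene distances.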

Additional observations from a re-analysis of the deposited data

Results flagged for a closer look

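Dfd+Hth held 77.3% of the regions shared by head proteins only that Dfd had not bound alone. This value stood apart from the 3 other head proteins, which had 18.9% for Pb, 15.1% for Lab and 8% for Scr, by more than Dixon's 95% critical value for 4 samples. Chance alone marks about 1 in 20 such groups. Over all merged regions not bound alone Dfd was also highest, with 54%, against 11.9% for Scr, 10.5% for Lab and 7.42% for Pb, and the Dfd+Hth list was the longest of those with Hth. The paper reports more mapped reads for both Dfd+Hth libraries than for either Dfd library. The parts of list length and of depth in the value were not tested.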

How the results depend on the processing

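No paired analysis was possible because each deposited list combines both replicates of a group. The number of regions was 880 on the q 1e-10 lists and 1157 where all lists of a combination had to share 1 base. It was 650 without Pb in the rule, 644 without Dfd and 2463 without Abd-B, and 925 to 1206 without any other protein, each left out of the merging too.

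The difference between head and trunk or abdominal lists with Hth was 38.5 to 65.7 percentage points in the alternatives on that scale. It was 53.8 without Antp, 53 without Ubx, 54.1 without Abd-A, 55.3 without Abd-B and 54.8 against Antp alone, and 3.24 as a log2 ratio to all merged regions. The planned permutation test is not read, since the rule fixes the direction. The kept share stayed below that of all merged regions by -7.16 to -1.03 points. With 4 proteins its sign-flip test could not have passed in any of these settings.

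The share in Hth was 1.12% with the q 1e-10 list and 18.1% for regions chosen on the q 1e-10 lists, an alternative chosen after seeing the data. The share in Exd+Hth was 26.7% with 50% overlap, 26.4% for centres and 52.6% for regions chosen on the strict lists. Over whole regions HoxA was in 70.8%, against 45.9% of all merged regions, HoxB in 62.6%, Exd-Hox in 27.5% and TGATGGAT in 3.8%, and HoxB was in 22.4% of centres chosen on the strict lists. Within 1000 bp of a start site lay 26.6%, against 53.5%, and within 500 bp of protein-coding starts 12.3%, against 38%. Within 5 kb there were 1687 genes. Lists without heights limit all of these to presence or absence.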
